A study of Homo sapiens with 12 samples.

Results

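The BCL2 family decides whether a cell opens its mitochondria and dies by apoptosis, and 10 of its genes were followed here in renal cancer cells in which miR-29 activity was raised or lowered. The 10 genes were listed by symbol, with earlier results of these data known: 4 anti-apoptotic genes (MCL1, BCL2, BCL2L1 and BCL2L2), 4 BH3-only genes (BCL2L11, BBC3, BMF and PMAIP1) and 2 effector genes (BAX and BAK1). All 10 were found among the 58051 counted genes, and all 10 passed the filter on low counts in each comparison. RNA-seq covered 12 libraries of 3 established human lines, 786-O, A-498 and ACHN, each labelled as clear cell renal cell carcinoma. A miR-29 mimic was set against a control mimic in 786-O, with 1 library for each, and in A-498, with 2 for each. A miR-29 inhibitor was set against a control inhibitor in ACHN, with 3 libraries for each. Every group received its oligonucleotide at 10 nM by lipid reverse transfection, and RNA was taken after 48 h, so no untransfected cells were included. A mimic is a synthetic duplex that adds miRNA activity, and an inhibitor is a synthetic oligonucleotide that blocks it. The study left out further A-498 libraries over possible mislabelling, and those were not analysed here.

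Anti-apoptotic members such as MCL1 and BCL-XL (the product of BCL2L1) bind and restrain their pro-apoptotic relatives at the outer mitochondrial membrane. BH3-only proteins are the stress sensors of the family: they occupy the groove of the anti-apoptotic members, and some also activate BAX and BAK (the product of BAK1), the effectors that form pores and release cytochrome c. MCL1 protein is short-lived, so its transcript and its degradation both set its level, and in renal carcinoma, as in other solid tumours, MCL1 and BCL-XL are commonly the main anti-apoptotic members. MCL1 is a well-known miR-29 target.

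The 3 mature miR-29 sequences of RefSeq (GRCh38.p14) are shown because a miRNA recognises most targets through its seed, nucleotides 2 to 8, which is in capitals and is the same in all 3.
hsa-miR-29a-3p: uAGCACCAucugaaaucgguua
hsa-miR-29b-3p: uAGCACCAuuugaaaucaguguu
hsa-miR-29c-3p: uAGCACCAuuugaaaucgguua
The miR-29a sequence is encoded on chromosome 7, miR-29c on chromosome 1, and miR-29b by 1 gene on each. The labels name the mimic only as miR-29, and the study's supplement calls the one used in 786-O a miR-29b mimic. The mature sequence that the study's methods print for the mimic holds the same seed but is identical to none of those shown above.

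Complementary sequence was searched for in 3′ UTRs of the GENCODE v44 annotation (hg38) as TGGTGCT (a 7mer-m8), TGGTGCTA (an 8mer), GGTGCTA (a 7mer-A1) and GGTGCT (a 6mer), on the transcribed strand, each place being counted once under its longest form. Within the first 2000 nt of the longest 3′ UTR, 4 of the 10 genes (MCL1, BBC3, BMF and BAK1) held a match to nucleotides 2 to 8, against 10.7% of 19248 protein-coding genes. In any annotated isoform the same 4 genes held one, against 12.3% of coding genes. The 4 sites are printed with their surroundings, the match in capitals, because these genes are followed separately in each line.
MCL1, chr1:150576037-150576060, minus strand: ggctagtctaaccaTGGTGCTAtt
BBC3, chr19:47221373-47221396, minus strand: ctggcctcaggccccTGGTGCTtc
BMF, chr15:40090393-40090416, minus strand: agaaaagacaacatTGGTGCTAac
BAK1, chr6:33573606-33573629, minus strand: acctcaacattgcaTGGTGCTAgt
The MCL1 8mer began 1329 nt after the stop codon and was present in 3 of 5 annotated 3′ UTR isoforms. The BMF 8mer began at 1385 nt, in 2 of 5 isoforms. The BAK1 8mer began at 382 nt and lay in both isoforms, and the BBC3 7mer-m8 began at 421 nt and lay in all 4. In the remaining genes, BCL2 had a 7mer-m8 only beyond the searched window, at 2354 nt, BCL2L2 had a 7mer-A1 at 1379 nt, and BCL2L11 had 6mers at 1346 and 3341 nt. BCL2L1, PMAIP1 and BAX held none of these letters. A match describes the sequence and is not evidence of binding, and which isoforms these cells used was not measured.

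**Figure D1:**
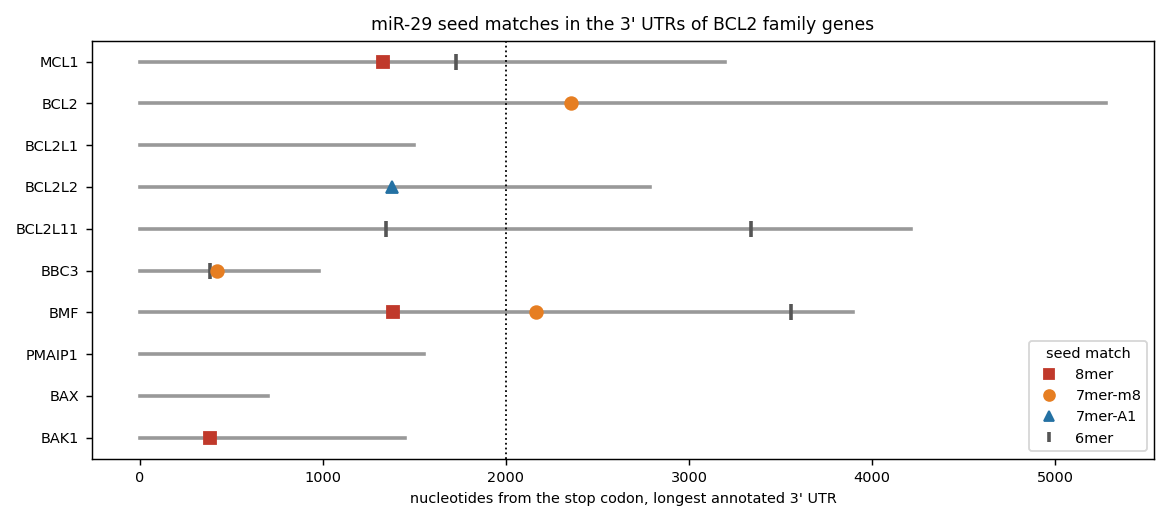
Each grey line is the longest annotated 3′ UTR of a gene, in nucleotides from the stop codon, with miR-29 seed matches drawn by type. The dotted line marks 2000 nt: MCL1, BBC3, BMF and BAK1 have an 8mer or 7mer-m8 to its left, and BCL2 has its 7mer-m8 to the right.

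The libraries held 39919554 to 70027392 reads in genes. As a check of the labels, 8 established miR-29 targets that encode matrix proteins were examined. Of these, 7 could be tested in A-498 and all 7 fell with the mimic (median log2 fold change -1.86). In ACHN 7 of 7 rose with the inhibitor (median 1.59), and in 786-O 7 of 7 were at least 1.5-fold lower in the mimic library (median log2 ratio -2.35). Genes listed as renal epithelial markers (PAX8, PAX2, KRT8, KRT18, VIM and CA9) summed to between 3599 and 6462 CPM (counts over the TMM-adjusted library size) in every library. The 4 blood cell markers together reached at most 0.27 CPM and the 3 endothelial markers at most 0.492 CPM. In 786-O the renal sum was mostly VIM, with 3962 of 5144 CPM in the control library and 5136 of 6462 CPM in the mimic library. PAX8 and KRT8 stood at 514 and 495 CPM in that control library. CA9, a marker of clear cell tumours, had 405 to 717 counts per A-498 library but 7 or fewer in every ACHN library and 2 and 14 in 786-O. Of the renal markers, 5 of 6 were higher with the mimic in A-498 and 4 of 5 tested were lower with the inhibitor in ACHN, whereas in 786-O PAX2 and CA9 were at least 1.5-fold higher with the mimic and the other 4 were neither higher nor lower by that measure. Over all genes tested, 27% were lower and 25.5% higher in A-498, and 17.3% were higher and 14.4% lower in ACHN. In 786-O 19% of all genes were at least 1.5-fold lower and 15.7% higher. The part of the renal markers in the results was not tested. These are bulk libraries, so a change in RNA per cell cannot be told apart from a change in which cells survived.

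Before miR-29 was changed, the lines held the family at different levels. Per kilobase of exon (FPKM, computed here from CPM and the union of annotated exons), BCL2L1 and MCL1 were the highest anti-apoptotic transcripts in every line. In control ACHN libraries BCL2L1 stood at 57.4 ± 1.39 FPKM (SD, n = 3) and MCL1 at 53.9 ± 0.923. In control A-498 libraries MCL1 was at 38.6 ± 1.31 FPKM (SD, n = 2) and BCL2L1 at 33.2 ± 2.25. The single 786-O control library had 43.3 FPKM of BCL2L1 and 12.8 of MCL1. BCL2L2 lay between 3.46 and 4.38 FPKM in the control groups and BCL2 between 0.438 and 3.55, so in each line BCL2, the founding member of the family, was among the low ones.

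Among the pro-apoptotic genes, both effectors and PMAIP1 were the highest in the control libraries of each line, and in 786-O all 3 lay above MCL1. BAX was at 41.3 ± 1.82 FPKM in ACHN (SD, n = 3), 27 ± 0.553 in A-498 (SD, n = 2) and 16.3 in 786-O. BAK1 was highest in A-498, at 24.5 ± 0.612 FPKM, against 11.7 ± 0.405 in ACHN and 14.4 in 786-O. PMAIP1, which encodes the MCL1-binding protein NOXA, was at 18.9 ± 1.22 FPKM in ACHN, 9.22 ± 0.404 in A-498 and 16.6 in 786-O. The order among genes depends on the length used: with the longest transcript in place of the union, BAX in ACHN became the highest of the 10 at 78.7 FPKM, above BCL2L1 at 74 and MCL1 at 73.7. By that length BAK1 in control 786-O, at 14.4 FPKM, was below MCL1 at 17.5.

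BMF and BCL2L11 differed most between the lines among the BH3-only genes. BMF, whose protein is held at the cytoskeleton until it is released by stress or detachment, was at 4.47 FPKM in 786-O, 0.841 ± 0.0681 FPKM in A-498 (SD, n = 2) and 0.0479 ± 0.00259 FPKM in ACHN (SD, n = 3), where it had 11 or 12 counts per control library. BCL2L11 encodes BIM, which binds every anti-apoptotic member, and followed the same order, with 9.13, 3.81 ± 0.276 and 1.18 ± 0.0774 FPKM. BBC3, which encodes PUMA, had 0.635 FPKM in 786-O, 4.19 ± 0.32 FPKM for A-498 and 4.48 ± 0.115 FPKM for ACHN, and the last 2 groups overlapped.

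Control A-498 was tested against control ACHN in edgeR, a comparison in which the line and the kind of control oligonucleotide cannot be told apart. Of the 10 genes, 5 were lower in A-498 and 4 higher (adjusted p under 0.05 over all genes), against 38.7% and 41% of the 19689 genes tested. Lower in A-498 were BCL2 (log2 fold change -2.08), PMAIP1 (-1.09), BCL2L1 (-0.84), BAX (-0.66) and MCL1 (-0.53). Higher were BMF (4.08), BCL2L11 (1.63), BAK1 (1.01) and BCL2L2 (0.18). BBC3 was not called (-0.15, edgeR adjusted p = 0.0538), although it was without control replicate 1 of A-498 (adjusted p = 0.0176). The BCL2L2 call was lost without control replicate 2 of ACHN (edgeR adjusted p = 0.0565).

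**Figure D2:**
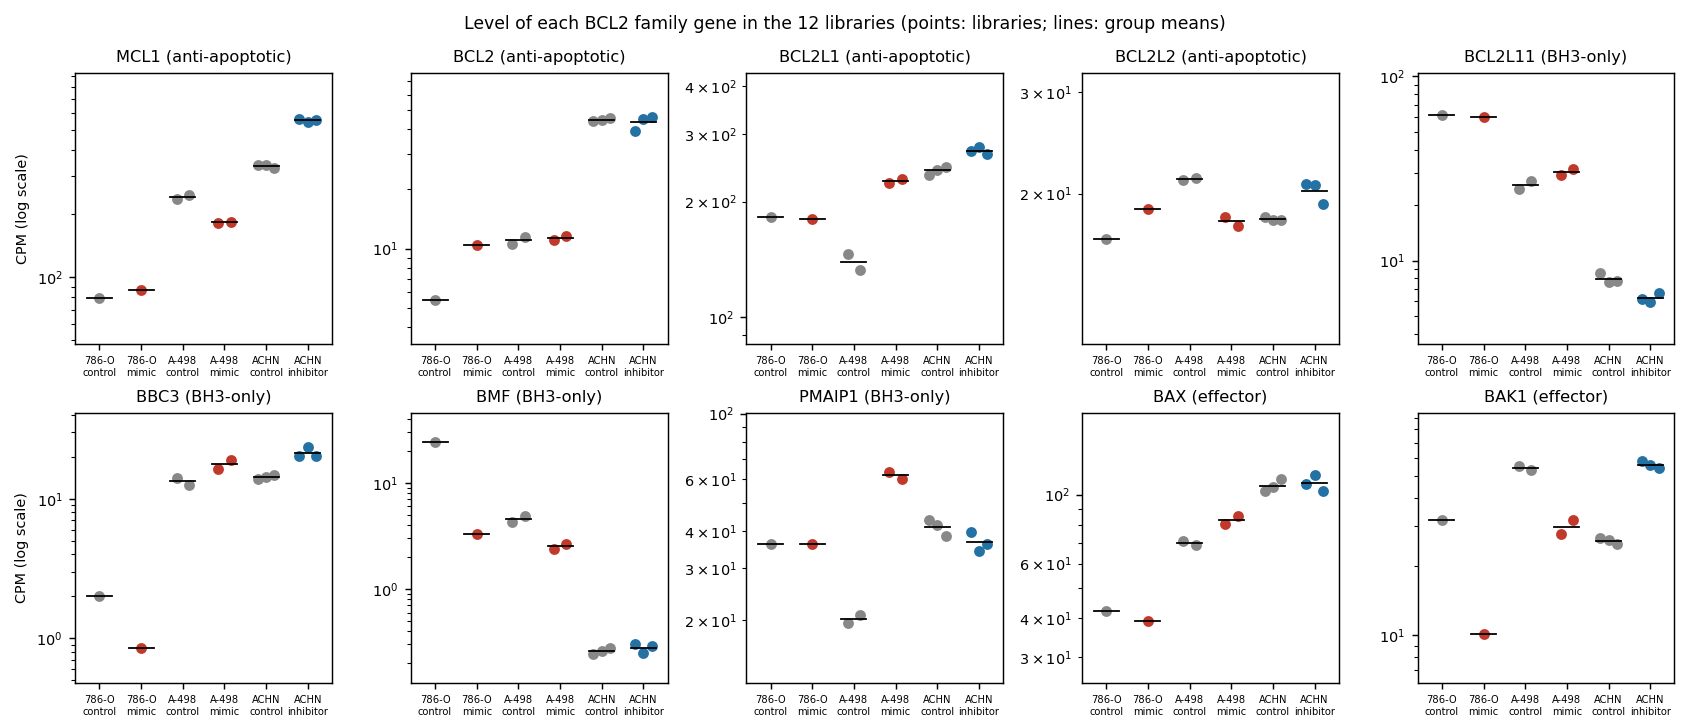
Each panel shows 1 gene on its own log axis in CPM, with a point per library and a line at the group mean. BAK1 lies lower with the mimic in 786-O and A-498 and higher with the inhibitor in ACHN. PMAIP1 is lowest in the A-498 control libraries (19.5 and 20.8 CPM) and highest in the A-498 mimic libraries (63.4 and 60.2 CPM).

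The A-498 comparison asked how the family responds when miR-29 is restored. MCL1, BCL2L2, BMF and BAK1 fell, and BCL2L1, BCL2L11, BBC3, PMAIP1 and BAX rose, so that each functional class held genes that moved in both directions. These 4 lower and 5 higher genes compare with 27% lower and 25.5% higher among 19676 genes tested (edgeR, adjusted p under 0.05). Scaling to library size in place of TMM called the same numbers of the 10 genes, and over all genes it gave 4354 lower and 6188 higher in place of 5313 and 5015. The median log2 fold change of the 10 genes was 0.14, that of all tested genes 0.00.

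Among the anti-apoptotic genes, MCL1 (ENSG00000143384, chr1:150560895-150579738, minus strand, hg38) had 234 and 246 CPM in the control libraries and 181 and 183 CPM in the mimic libraries. This was a 1.32-fold fall, with a log2 fold change of -0.40 (SE 0.0385, edgeR adjusted p = 7.07e-07). BCL2L1 (ENSG00000171552, chr20:31664452-31723989, minus strand) had 146 and 133 CPM with the control mimic and 224 and 229 CPM with the miR-29 mimic. It rose by 0.70 on the log2 scale (SE 0.0454, edgeR adjusted p = 1.13e-08). The 2 highest anti-apoptotic transcripts of A-498 therefore moved in opposite directions.

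BCL2L2, which encodes BCL-w, went from 21.1 and 21.3 CPM to 18.2 and 17.6 CPM (log2 fold change -0.25, edgeR adjusted p = 0.00429). Its adjusted p was 0.0663 without mimic replicate 2. A readthrough gene, BCL2L2-PABPN1, shares 16.8% of the BCL2L2 exon length on the same strand, and reads in shared exons are not counted for either gene. BCL2 was not called: its 10.5 and 11.5 CPM in controls overlapped the 11 and 11.6 CPM in mimic libraries (log2 fold change 0.04, interval -0.13 to 0.21, edgeR adjusted p = 0.695).

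PMAIP1 showed the largest change of the 10 genes in A-498. The gene (ENSG00000141682, chr18:59899996-59904305, plus strand) had 19.5 and 20.8 CPM in the control libraries and 63.4 and 60.2 CPM in the mimic libraries. This was a 3.07-fold rise (log2 fold change 1.62, SE 0.0562, edgeR adjusted p = 2.06e-11), and 2.49% of all tested genes had a larger absolute change. NOXA binds MCL1 with preference over BCL-XL, and its transcript rose in the libraries in which MCL1 fell.

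The other BH3-only genes changed less or fell. BMF (ENSG00000104081, chr15:40087890-40108892, minus strand) went from 4.32 and 4.84 CPM to 2.38 and 2.66 CPM (log2 fold change -0.87, SE 0.124, edgeR adjusted p = 3.98e-05). BBC3 (ENSG00000105327, chr19:47220822-47232766, minus strand), although it carries a 7mer-m8, rose from 14.1 and 12.6 CPM to 16.4 and 18.9 CPM (0.40, SE 0.0832, edgeR adjusted p = 0.000955). BCL2L11 rose from 24.4 and 27 CPM to 29.2 and 31.2 CPM (0.23, SE 0.0645, edgeR adjusted p = 0.00727). The BCL2L11 call was lost without mimic replicate 2, which leaves a single mimic library.

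The effectors moved apart. BAK1 (ENSG00000030110, chr6:33572547-33580293, minus strand) went from 55.1 and 53.2 CPM to 27.8 and 32.1 CPM with the mimic. This was a fall of 0.86 on the log2 scale, or 1.81-fold (log2 fold change -0.86, SE 0.0635, edgeR adjusted p = 4.96e-08). BAX, which has no seed match, rose from 70.9 and 68.9 CPM to 80.3 and 85.1 CPM (0.24, SE 0.0463, edgeR adjusted p = 0.00051).

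**Figure D3:**
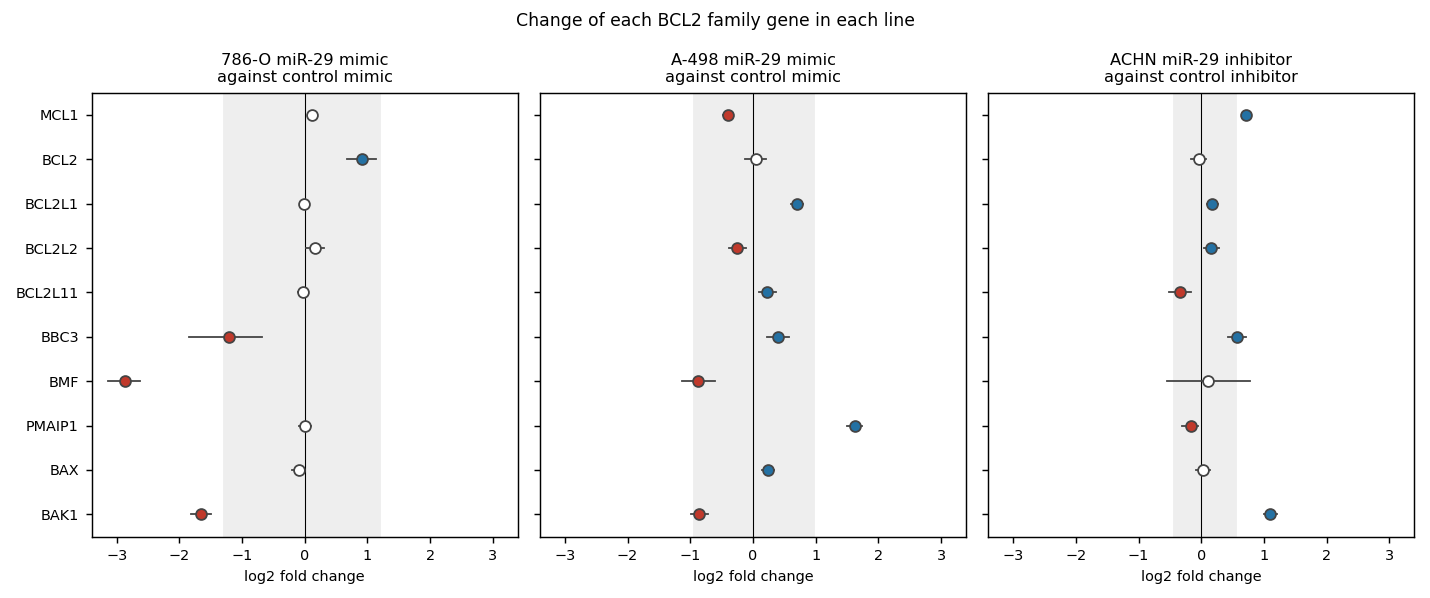
Log2 fold change of each gene in each line, with 95% intervals (in 786-O a log2 ratio with a counting interval only); filled points were called (in 786-O, were at least 1.5-fold apart), red lower and blue higher, and the grey band holds the middle 90% of all genes. BAK1 lies outside the band in 786-O (-1.65) and ACHN (1.10), BMF in 786-O (-2.86), PMAIP1 in A-498 (1.62), and MCL1 (0.72) and BBC3 (0.57) in ACHN.

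The ACHN comparison asked the reverse, how the family responds when endogenous miR-29 is blocked. MCL1, BCL2L1, BCL2L2, BBC3 and BAK1 rose, and BCL2L11 and PMAIP1 fell. These 5 higher and 2 lower genes compare with 17.3% higher and 14.4% lower among 17904 genes tested (edgeR, adjusted p under 0.05). BCL2, BMF and BAX were not called.

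BAK1 rose most. It had 26.8, 26.1 and 25 CPM in the control libraries and 57.9, 55.6 and 54.2 CPM in the inhibitor libraries. All 3 inhibitor libraries lay above all 3 controls, and the rise was 2.15-fold (log2 fold change 1.10, SE 0.0484, edgeR adjusted p = 6.46e-12). In all, 0.91% of all tested genes had a larger absolute change.

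MCL1 had 339, 339 and 329 CPM in the control libraries and 561, 546 and 556 CPM with the inhibitor. The groups lay far apart relative to the spread within them. It rose by 0.72 on the log2 scale (SE 0.0361, edgeR adjusted p = 4.27e-11), or 1.65-fold, and 3.89% of all tested genes changed more. Of the MCL1 exon length, 5.27% is shared on the same strand with ADAMTSL4-AS1.

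BBC3 went from 13.9, 14.2 and 14.7 CPM to 20.2, 23.4 and 20.1 CPM. It rose in ACHN with the inhibitor (log2 fold change 0.57, SE 0.0684, edgeR adjusted p = 3.73e-06), as it did in A-498 with the mimic. BMF, the other BH3-only gene with a site, was too low in ACHN for a change of moderate size to be detected. Its 11, 12 and 11 counts in controls and 13, 19 and 20 counts with the inhibitor gave a log2 fold change of 0.11 with an interval of -0.55 to 0.78 (edgeR adjusted p = 0.825).

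The remaining changes in ACHN were small. BCL2L1 rose from 235, 242 and 246 CPM to 271, 277 and 266 CPM (log2 fold change 0.17, edgeR adjusted p = 0.00285), and BCL2L11 fell from 8.58, 7.61 and 7.77 CPM to 6.19, 5.98 and 6.71 CPM (-0.34, edgeR adjusted p = 0.00483). BCL2L2 went from 18 to 18.2 CPM in controls to 19.2 to 20.8 CPM (0.16, edgeR adjusted p = 0.0401). That call was lost with DESeq2 (adjusted p = 0.082) and on leaving out any library but inhibitor replicate 3 (edgeR adjusted p from 0.0575 to 0.155).

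PMAIP1 had 38.5 to 43.7 CPM in ACHN controls and 34.2 to 39.8 CPM with the inhibitor, and the groups overlapped (log2 fold change -0.17, edgeR adjusted p = 0.0314). The call was lost without control replicate 1 (adjusted p = 0.141), control replicate 2 (0.099), inhibitor replicate 2 (0.0652) or inhibitor replicate 3 (0.105). BAX was not called at 103 to 112 CPM against 103 to 116 CPM (0.03, interval -0.08 to 0.14), nor was BCL2 at 44.1 to 45.7 CPM against 39.3 to 46.1 CPM (-0.04, interval -0.16 to 0.07).

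In 786-O each group was a single library, so the differences have no replicate check and no p-value, and the intervals cover counting error only. BMF, BAK1 and BBC3 were at least 1.5-fold lower in the mimic library and BCL2 was higher. Among all 20370 genes with enough counts, 19% were lower and 15.7% higher by this measure. The 3 lower genes all carry a match to nucleotides 2 to 8, and MCL1, the fourth such gene, was not lower.

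BMF had 1085 counts (24.4 CPM) in the control library and 148 counts (3.31 CPM) in the mimic library. The log2 ratio was -2.86 (interval -3.14 to -2.63), 7.29-fold lower, and 0.329% of all genes differed more. BAK1 had 1423 counts (32 CPM) and 454 counts (10.1 CPM), a log2 ratio of -1.65 (interval -1.81 to -1.50).

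BBC3 rested on fewer reads, with 90 counts (2.02 CPM) in the control library and 38 (0.849 CPM) in the mimic library, and its log2 ratio was -1.21 (interval -1.84 to -0.69). BCL2 had 246 counts (5.52 CPM) and 465 counts (10.4 CPM), a log2 ratio of 0.91 (interval 0.68 to 1.14). MCL1 had 3555 counts (79.8 CPM) and 3880 counts (86.7 CPM), a log2 ratio of 0.12 (interval 0.05 to 0.18). BCL2L1, BCL2L2, BCL2L11, PMAIP1 and BAX had log2 ratios between -0.10 and 0.17. PMAIP1, which moved most in A-498, had 36.3 CPM in each 786-O library.

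Whether the 2 mimic-treated lines responded differently was tested by the interaction of line and mimic (edgeR), with the spread taken from A-498 alone. Relative to A-498, the log2 effect in 786-O was lower for BMF (-1.97), BBC3 (-1.61), PMAIP1 (-1.57), BAK1 (-0.75), BCL2L1 (-0.67) and BAX (-0.30), and higher for BCL2 (0.91), MCL1 (0.57) and BCL2L2 (0.46). These 6 lower and 3 higher genes compare with 13.2% lower and 16.5% higher among 22587 genes tested (edgeR, adjusted p under 0.05). BCL2L11 was not called (-0.22, edgeR adjusted p = 0.12). With a biological coefficient of variation fixed at 0.2, BMF was the only call among the 10 genes (edgeR likelihood ratio test, adjusted p = 0.0233).

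Set side by side, the 4 genes with a match to nucleotides 2 to 8 had log2 changes with the A-498 mimic of -0.40 (MCL1), -0.87 (BMF), -0.86 (BAK1) and 0.40 (BBC3). With the inhibitor in ACHN the same genes had 0.72, 0.11, 1.10 and 0.57, and with the mimic in 786-O 0.12, -2.86, -1.65 and -1.21. Their medians were -0.63, 0.65 and -1.43, and those of the 6 genes without such a match 0.24, -0.01 and -0.01. Of the 10 genes, only BAK1 was lower with the mimic in A-498 and 786-O and also rose with the inhibitor. MCL1 fell in A-498 and rose in ACHN but was not lower in 786-O, and BBC3 was lower with the mimic only in 786-O.

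Shares within a library do not depend on scaling between libraries, so the make-up of each class was also described, without a test. MCL1 made up 48.5% and 51.7% of the summed anti-apoptotic FPKM in A-498 controls and 33.3% and 33.2% with the mimic. The BCL2L1 share went from 44.8% and 41.3% to 61.4% and 61.7%. In ACHN the MCL1 share went the other way, from 44.5% to 46.3% in controls to 54.3% to 55.7% with the inhibitor.

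In 786-O BCL2L1 dominated in both libraries, with 72.2% and 69.8%, and MCL1 held 21.4% and 22.6%. BAK1 made up 47% of effector FPKM in the 786-O control library and 23.2% with the mimic. In A-498 its share was 47.6% and 47.5% in controls and 28.8% and 30.6% with the mimic, and in ACHN 20.7% to 23.4% in controls and 35.8% to 38.5% with the inhibitor. The shares of BAK1 did not overlap between treated and control libraries in either replicated line.

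Summed over the classes, anti-apoptotic FPKM divided by pro-apoptotic FPKM (BH3-only plus effector) was 1.11 in both A-498 controls and 1.06 and 1.03 with the mimic. In ACHN this ratio was 1.52 to 1.54 in controls and 1.72 to 1.82 with the inhibitor. In 786-O it was 0.975 and 1.33, higher with the mimic. The shares and ratios depend on the length used, here the union of exons. By the longest transcript, BAX in the 786-O control library was at 31 FPKM in place of 16.3, while BAK1 stayed at 14.4. Transcript sums say nothing of protein levels or of cell death, which were not measured in these libraries.

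**Figure D4:**
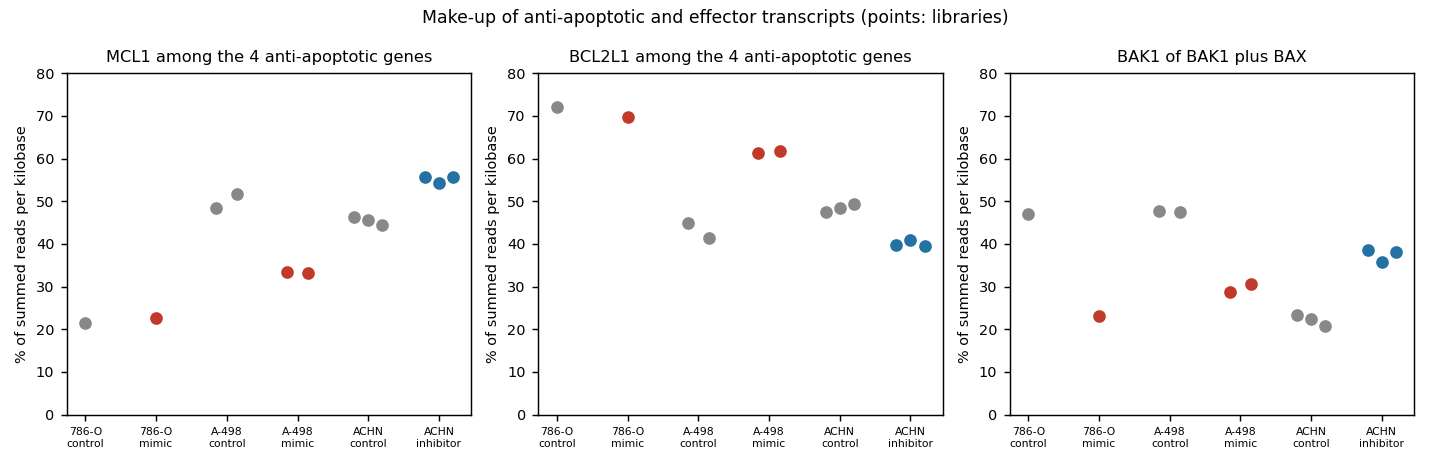
Share of MCL1 and of BCL2L1 in the summed FPKM of the 4 anti-apoptotic genes, and of BAK1 in that of BAK1 and BAX, with a point per library. With the mimic the BAK1 share is 23.2% in 786-O and 28.8% to 30.6% in A-498, below the controls of each line, and with the inhibitor in ACHN it is 35.8% to 38.5%, above them.

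Genes whose profile was most like a member were found by distance of log2 CPM, centred within each line, over the 12 libraries and 9913 genes. Nearest to BAK1 was LAMC1, a laminin chain and also a gene of the label check (distance 0.258), followed by HBP1 and RAB30. Nearest to MCL1 were ATP8B1 (0.142), CMTM3 and DHRS3, and nearest to BBC3 were COL7A1 (0.172), ARVCF and DNAJB2. For PMAIP1 they were CHIC1 (0.271), GXYLT1 and HDAC9, and for BCL2L1 EHD1 (0.153), COL27A1 and CES2. BCL2L2 was nearest to STT3A (0.116), RBFOX2 and UBFD1, and BCL2L11 to GTF2E2 (0.175), HSPH1 and METTL5. These are descriptions over libraries that share a line and a transfection.

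Downstream of the mitochondria, cytochrome c and APAF1 activate caspase-9, and the IAP proteins restrain caspases. Of 10 genes of this step, 3 fell and 3 rose with the mimic in A-498, and 2 rose and 1 fell with the inhibitor in ACHN (edgeR, adjusted p under 0.05). In 786-O 3 were at least 1.5-fold lower and 0 higher. Over all genes, 27% were lower and 25.5% higher in A-498, 17.3% higher and 14.4% lower in ACHN, and 19% lower and 15.7% higher in 786-O, so the counts in A-498 and ACHN lay near those of all genes. The median log2 change was 0.10 for A-498, 0.03 for ACHN and -0.24 for 786-O.

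BIRC2, which encodes the inhibitor cIAP1 and carries a 7mer-m8, changed by -1.09 in A-498 and 0.49 in ACHN (edgeR adjusted p = 2.72e-10 and 2.73e-06), with a log2 ratio of -1.58 in 786-O. CASP9, the initiator caspase, has no match, fell by 1.37 in A-498 (edgeR adjusted p = 6.06e-08), was 0.10 and not called in ACHN, and in 786-O its log2 ratio was -1.44. BIRC3, which encodes cIAP2, reached -1.74 in that line. BIRC5, which encodes survivin, had -0.82 in A-498 and APAF1 0.50 (edgeR adjusted p = 5.64e-10 and 3.24e-07). The gene that fell in ACHN was CYCS, cytochrome c itself (-0.22, edgeR adjusted p = 0.00137), and APAF1 rose by 0.13 (adjusted p = 0.042). CYCS carries an 8mer, and it rose by 0.12 with the mimic in A-498 (edgeR adjusted p = 0.029).

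Of 7 further BCL2 family genes, 4 were tested in A-498 and 2 fell and 2 rose, against 27% and 25.5% of all genes tested. BIK, a BH3-only gene, rose by 1.59 (edgeR adjusted p = 0.00257) from 0.185 to 0.57 CPM, a level at which each control library had 12 counts or fewer. BOK, an effector-like relative, had -0.57, the BH3-only gene BAD -0.51, and BID, which links death receptors to mitochondria, 0.27. BID carries a 7mer-m8 in only 1 of 7 annotated isoforms. In ACHN 6 were tested, of which 4 rose and 1 fell: BCL2A1, an anti-apoptotic relative, had 1.62, the BH3-only genes HRK, which carries an 8mer, 1.20 and BIK 0.48, and BAD 0.26, while BID had -0.15. Of all genes tested in ACHN, 17.3% rose and 14.4% fell. BCL2A1 stood at 0.556 CPM in ACHN controls and HRK at 0.188 CPM, so both were low. In 786-O 2 of 5 were at least 1.5-fold lower, BCL2A1 on 14 and 2 counts and BIK on 32 and 19, and 0 were higher, against 19% and 15.7% of all genes.

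MCL1 protein turnover involves the ubiquitin ligases HUWE1 and FBXW7 and the deubiquitinases USP9X and USP13. FBXW7 carries an 8mer and USP13 a 7mer-m8. In A-498 FBXW7 rose by 0.54 with the mimic, and USP13 (-0.64), USP9X (-0.15) and HUWE1 (-0.11) fell (edgeR adjusted p from 2.62e-07 to 0.0302). In ACHN FBXW7 rose by 0.40 with the inhibitor and USP13 fell by 0.23 (edgeR adjusted p = 4.81e-06 and 0.000954), so both genes had the same sign in the 2 lines although the treatments were opposite. The log2 ratio of FBXW7 was -0.73 in 786-O, where none of the 4 was at least 1.5-fold higher. Beside these stand 27% lower and 25.5% higher of all genes tested in A-498. In ACHN 17.3% of all genes were higher and 14.4% lower, and in 786-O 19% were lower and 15.7% higher.

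**Figure D5:**
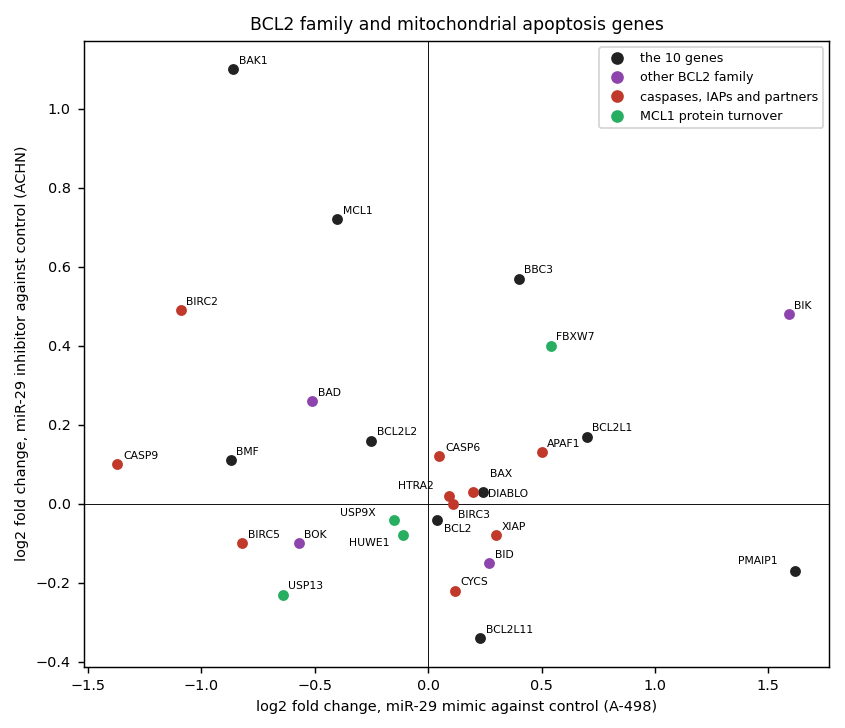
Log2 fold change with the mimic in A-498 (x axis) against that with the inhibitor in ACHN (y axis), with a point per gene tested in both lines, coloured by list. BAK1, MCL1 and BIRC2 lie at the upper left (fell with the mimic, rose with the inhibitor). BAD (-0.51 and 0.26) and BCL2L2 (-0.25 and 0.16), without a match to nucleotides 2 to 8, lie there too, with smaller changes. BBC3, BCL2L1, BIK and FBXW7 are higher in both, and PMAIP1 lies far right at 1.62 and -0.17.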

How the data were processed

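The authors prepared stranded, rRNA-depleted libraries, aligned paired reads to GRCh38 with HISAT2 and deposited raw counts per gene from HTSeq-count (strict intersection, Ensembl annotation). Reads assigned to no single gene, 37.2% to 48% per library, were left out. The authors' DESeq2 tables hold their own means, fold changes and p-values and were not used. Symbols were found for 56948 of 58051 identifiers (98.1%). Counts were tested in edgeR 4.0.16 (R 4.3.3; TMM, filterByExpr, quasi-likelihood test, Benjamini-Hochberg over all genes tested), with DESeq2 1.42.0 as an alternative, and the test was checked on simulated counts. For 786-O, ratios used CPM with prior count 2 and genes with at least 10 counts. All 10 genes were named; from each pathway list, called genes of largest change (at most 4 per line), and for genes called in A-498 and ACHN the 3 nearest profiles at a mean log2 CPM of at least 3. A few more list genes (CASP9 and BID in ACHN, DDIT3 in 786-O) were named after their values were seen. Some list genes are not reported here and were left out of the list counts. The genes and lists were chosen with earlier results of these data known. The study's methods call the A-498 and ACHN replicates biological, without saying whether each was a separate culture, so p-values measure the spread between these libraries. No replicate pair was a copy (chi-square over its degrees of freedom, 3.87 to 12.2). Intervals cover counting error only in 786-O.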

Additional observations from a re-analysis of the deposited data

Results flagged for a closer look

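For 9 of the 10 genes the response of the 786-O line to the mimic was called different from that of the A-498 line by the interaction test in edgeR, with the spread taken from A-498 alone. The difference in log2 change, 786-O minus A-498, was -1.97 for BMF, -1.61 for BBC3, -1.57 for PMAIP1, -0.75 for BAK1, -0.67 for BCL2L1 and -0.30 for BAX. It was 0.91 for BCL2, 0.57 for MCL1 and 0.46 for BCL2L2. BBC3 had opposite signs in the 2 lines (0.40 in A-498, -1.21 in 786-O), and BAK1 and BMF were lower in both. Each 786-O group is 1 library, so these calls assume that 786-O varies like A-498. With a biological coefficient of variation fixed at 0.2, which is an assumed value, only BMF was called among the 10 genes. For none of the 10 genes, BMF included, is a difference between the lines shown by replicates of both.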

How the results depend on the processing

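Of the 686 alternative values, 610 were classed as unchanged, 41 as moved, 31 as weaker, 4 as stronger and 0 as reversed. A change of sign in a gene that was not called could be classed as unchanged. The log2 fold change of BCL2 in A-498 was 0.04, and -0.03 without control replicate 1. Counts of genes have no direction, and some that shifted were classed as unchanged. With library size, 4354 genes were lower in A-498 in place of 5313. In ACHN, members called lower numbered 1 in place of 2 at adjusted p under 0.01 and with the spread shared by all 12 libraries, and 1 to 2 on leaving out a library, because PMAIP1 was lost. In the 786-O against A-498 test, a biological coefficient of variation of 0.2 left 1 member lower and 0 higher (182 and 99 of all genes). Without A-498 mimic replicate 1, 2409 of all genes were called higher there in place of 3723 and BCL2L2 was lost (edgeR adjusted p = 0.0513). BAX was lost without mimic replicate 2 (0.14), and BCL2L11 was gained without control replicate 3 (0.00023), without mimic replicate 1 (0.0363) and with library size (0.0254). At 2-fold, 0 members were higher in 786-O. BCL2L2 in ACHN also lost its call with library size (0.0573) and RLE factors (0.0512). In the ACHN fit at adjusted p under 0.01, 1640 of all genes were lower in place of 2580. Counts of members with a seed match were 5 over the whole 3′ UTR (15% of coding genes) and 6 with 6mers (25.2%). The replicate block in ACHN called 2 members lower and 4 higher, with BCL2L2 lost (adjusted p = 0.0651), and 2638 and 3125 of all genes. Deviations of same-numbered ACHN libraries correlated at 0.04, -0.05 and 0.00, so no expression effect shared by a number was seen. Whether same-numbered libraries were handled together cannot be told from these values. No paired analysis was possible in A-498 because its groups share only 1 replicate number. Leaving out an A-498 library leaves a lone sample, assumed to vary like the other group.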

Other observations

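The death receptor route to apoptosis, which starts at the cell surface, moved in both directions in A-498. Of 8 genes, 3 rose and 3 fell with the mimic (edgeR, adjusted p under 0.05), against 25.5% and 27% of all genes tested. FAS, the receptor of FAS ligand, rose from 79 ± 2.45 to 152 ± 2.68 CPM (SD, n = 2, log2 fold change 0.95, edgeR adjusted p = 2.36e-10) although it carries a 7mer-m8, and the TRAIL receptor TNFRSF10A rose by 0.86. TNFRSF1A, the main TNF receptor, carries an 8mer and had -0.85, and CFLAR, an inhibitor of caspase-8, had -0.24. In ACHN 2 rose and 0 fell with the inhibitor, the TRAIL receptor TNFRSF10B by 0.36 and CASP8 by 0.17, against 17.3% and 14.4% of all genes tested. TNFRSF10B carries a 7mer-m8 and CASP8 an 8mer. In 786-O 4 were at least 1.5-fold lower with the mimic and 0 higher: TNFRSF10B (-1.22), CASP10 (-1.21), TNFRSF1A (-1.02) and CFLAR (-0.86). Of all genes there, 19% were lower and 15.7% higher.

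Of 6 transcription factors known to induce BH3-only genes, 2 rose and 2 fell with the mimic in A-498 among 5 tested, again beside 25.5% and 27% of all genes. DDIT3, which encodes the stress factor CHOP, rose from 19.9 ± 1.46 to 42.7 ± 1.06 CPM (SD, n = 2, log2 fold change 1.10, edgeR adjusted p = 2.59e-09), and ATF4, the factor upstream of it, by 0.29. FOXO3 had -0.43 and E2F1 -0.27, and both carry a 7mer-m8. In ACHN FOXO3 rose (0.44) and E2F1 fell (-0.53) among 6 tested. In 786-O the log2 ratio was -0.99 for FOXO3 and 0.67 for E2F1, while DDIT3 had 7.16 CPM in the control library and 7.73 CPM with the mimic.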
